A study of Mus musculus with 2 samples.

Results

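Somatotrophs, the growth hormone cells of the anterior pituitary, were described in library FMC_new, 1 of 2 single-cell RNA libraries made from Nf1-OPG mouse optic nerve. They were chosen by a rule on measured values. Barcodes of FMC_new were kept at 500 to 5000 detected genes, 500 to 20000 UMIs (counted RNA molecules) and at most 5% mitochondrial UMIs. A somatotroph was a kept barcode in which Gh held at least 10% of the UMIs, Gh was at or above Prl and Ptprc, the leukocyte gene encoding CD45, had no UMI. The rule found 308 somatotrophs among the 16818 kept barcodes of FMC_new, and 25652 barcodes were kept in both libraries together.

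The study tested drugs in Nf1-OPG mice, which form optic gliomas, and these libraries profiled single cells of their optic nerves with a 5′ kit of 10x Genomics. The mice carry 1 mutant and 1 floxed Nf1 allele with Cre driven by the GFAP promoter, which deletes the floxed allele in astroglial cells and their precursors. Both libraries, C-ON and FMC_new, are labelled optic nerve and NF1-OPG, at an age of 12 weeks, with tissue of 10 mice pooled, and neither label names a treatment, though the study's methods speak of individual tumors. C-ON is called a control in its title and has the same genotype, so the libraries were not compared as conditions. Somatotrophs were found in 1 library of pooled mice, so no test between samples could be made, no p-value is given, and cells were never counted as replicates.

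The anterior pituitary lies below the brain, close to the optic chiasm, and is no part of the optic nerve. Somatotrophs store growth hormone in dense granules and release it under hypothalamic growth hormone-releasing hormone, which acts through its receptor Ghrhr and cyclic AMP, while somatostatin inhibits release. The transcription factor Pou1f1 (Pit-1) is needed for somatotrophs, for lactotrophs, which make prolactin, and for thyrotrophs, whereas corticotrophs and melanotrophs, which make proopiomelanocortin, form without it.

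The 308 somatotrophs made up 1.83% of the kept barcodes of FMC_new (exact Clopper-Pearson 95% interval 1.63 to 2.05%). In C-ON the same rule found 0 of 8834 kept barcodes, which allows a share of up to 0.0340% by 3 counts of the total and up to 0.0417% by the exact interval, and the whole library held 1 Gh UMI. The tissue label, optic nerve, names no pituitary, and a part of the labels' protocol that covers meningeal dura does not either. Intervals in the text cover counting error of these libraries and nothing else.

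Library FMC_new held 21341 barcodes with 129113325 UMIs, and C-ON held 10845 barcodes with 85101211 UMIs. The libraries shared 296 barcode sequences, 3 of them in somatotrophs. Gh UMIs were spread over FMC_new: T cells, which do not make growth hormone, held a median of 13 Gh UMIs, and 99.9% of them had at least 1. A Gh UMI therefore marked no cell type in this library, while somatotrophs held a median of 3945.5 Gh UMIs. They carried 74.7% of the Gh UMIs of the kept barcodes.

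Somatotrophs were compared with 3 groups of FMC_new. Lactotrophs (190 barcodes) had Prl at 10% of UMIs or more and above Gh, with no Ptprc UMI. Pomc cells (328 barcodes) had Pomc at 5% or more with Gh and Prl below their limit and no Ptprc UMI. Non-endocrine cells (15719 barcodes) were below the limit of every hormone. T cells (3684 barcodes with Cd3 UMIs and Ptprc) within them served as the background for free RNA. Subtracting their mean as free RNA also takes away RNA that T cells make themselves. Levels are UMIs per 1000000 UMIs other than Gh and Prl, here called CPM, with exact Poisson 95% intervals, since Gh and Prl fill a large part of the UMIs by the rule itself. A gene was called higher or lower at a ratio of 2 or more with at least 50 CPM in the higher group. Of 4606 genes tested against lactotrophs, 508 (11.0%) were called higher in somatotrophs and 224 (4.86%) lower, with a median log2 ratio of 0.14.

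The values used by the rule varied widely among the 308 somatotrophs. Gh took from 10.1% to 88.0% of the UMIs, with a median of 46.7%. Total UMIs ran from 1191 over a median of 9351 to 19906, and UMIs other than Gh and Prl from 709 over 4404 to 16703. Detected genes ran from 505 over 2328 to 4888. The Gh share had no gap at the limit: the 5 members nearest to it had 10.1, 10.3, 10.4, 10.6 and 10.8%, and the 5 barcodes next below had 9.52, 9.46, 9.43, 9.38 and 8.90%. Over 10 percentage points each from 10 to 90%, the members numbered 56, 30, 45, 38, 62, 43, 30 and 4, with low counts between 20 and 30% and the most between 50 and 60%. Prl stayed low, at a median of 3 UMIs and at most 8.72% of the UMIs, 4 members reached 1% Prl, and no barcode that met the other limits had Gh and Prl both at 10% or more.

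**Figure D1:**
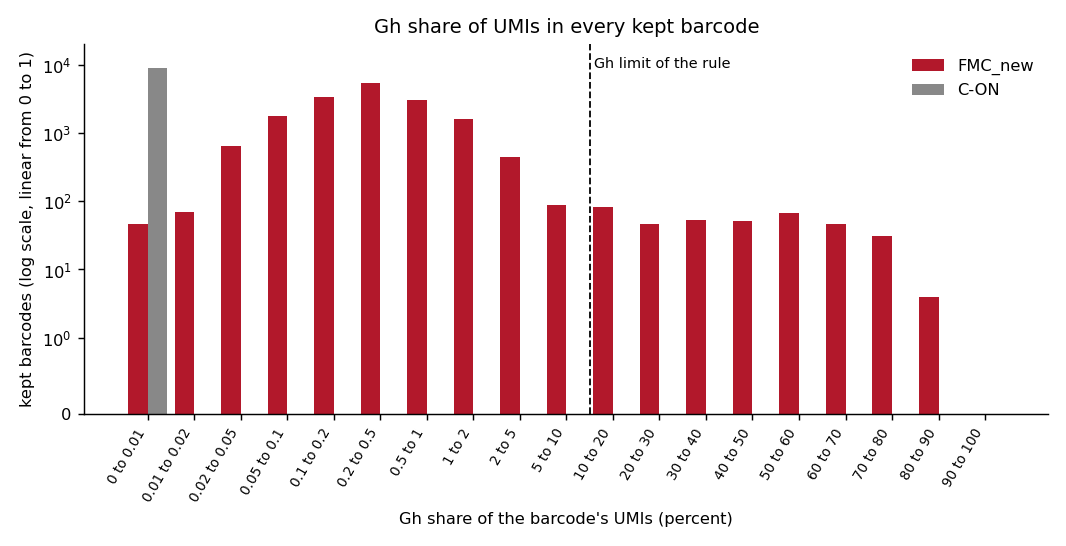
Kept barcodes (log scale, linear from 0 to 1) by the share of their UMIs that were Gh, in percent, for FMC_new and C-ON, with the limit of the rule as a dashed line. The bars of FMC_new fall to 87 barcodes at 5 to 10% and run on at 31 to 82 from 10 to 80%, while every kept barcode of C-ON is in the lowest range; bars right of the line include barcodes with a Ptprc UMI, which are not members.

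Among the 56 members at 10 to 20% Gh, 22 stood apart from the rest, a set seen in these data and not planned. Each of the 22 held 40 to 122 UMIs of the immunoglobulin heavy chain gene Ighv1-67 (median 73.5) and 127 to 528 UMIs of the light chain gene Igkv6-17 (median 318.5). The other 286 members held at most 1 Ighv1-67 UMI and a median of 2 Igkv6-17 UMIs. The set did not end at the Gh limit. With or without Ptprc, 32 kept barcodes at 5% Gh or more had 10 or more Ighv1-67 UMIs, at 6.81 to 19.2% Gh. Antibody genes of this kind are used by B lineage cells and not by pituitary cells. The 22 had 11.0 to 19.2% Gh, a median of 2047.5 UMIs, and Jchain, which joins secreted IgA and IgM, at 16883 CPM, against 922 CPM in the other 34 members at 10 to 20% and 871 CPM in the 222 members at 30% or more. Their somatotroph genes were low: Ghrhr had 48.9 CPM in 2 of 22 cells, and Neurod4 and Rxrg had 0 UMIs, while the other 34 had Ghrhr at 199 CPM in 13 cells, Neurod4 at 75.4 CPM and Rxrg at 108 CPM. Pomc was at 8820 CPM in the 22, against 1972 CPM in the other 34. The cause was not tested. Without them 286 members were left with a median Gh share of 49.5%, and the counts of called genes became 535 higher and 230 lower against lactotrophs.

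The label was checked against genes the rule did not use. Ghrhr, the receptor for growth hormone-releasing hormone, had 744 UMIs in the 308 somatotrophs, from 0 to 15 in a cell with a median of 1, and was found in 66.2% of them (exact interval 60.7 to 71.5%). Its level was 489 CPM (455 to 526), against 0 UMIs in lactotrophs, Pomc cells and C-ON. With 3 UMIs over the group as a floor, that is at least 127-fold higher than lactotrophs and at least 473-fold higher than Pomc cells. T cells had a Ghrhr UMI in 0.651%, at a median of 3618 UMIs per cell against 9351 in somatotrophs. After every cell was thinned to 1000 UMIs other than Gh and Prl, which left out 18 somatotrophs, the share was 33.1% in somatotrophs, 0% in lactotrophs and 0.137% in T cells. Ghrhr thus had no UMI in lactotrophs or Pomc cells within the limits of the rule. Without the upper limits on genes and UMIs lactotrophs had 4.45 CPM, and the log2 ratio was 6.78.

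Pou1f1 was shared with lactotrophs. It had 627 UMIs in somatotrophs, from 0 to 17 in a cell with a median of 1, at 412 CPM (381 to 446), and was found in 61.0% of the cells against 1.33% of T cells. Lactotrophs had 575 CPM (523 to 631), 1.39-fold more (1.23 to 1.58), whereas Pomc cells had 4.49 CPM and non-endocrine cells 4.18 CPM. After thinning, a Pou1f1 UMI was found in 23.8% of somatotrophs (19.0 to 29.1%), 37.5% of lactotrophs and 0.302% of T cells. The gene therefore separated the prolactin and growth hormone cells from Pomc cells and non-endocrine cells and did not separate them from each other.

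Pappa2, a protease that cleaves IGF-binding proteins, was at 239 CPM (215 to 265) in 39.9% of somatotrophs and had 0 UMIs in lactotrophs, at least 62.0-fold lower. Pomc cells held 1 Pappa2 UMI, for a ratio of 694 with an interval from 124 to 27481. Rxrg, a retinoid X receptor, was at 121 CPM in 37.0% of somatotrophs against 11.6 CPM in lactotrophs, 10.5-fold more (5.39 to 23.2), and 0 UMIs in Pomc cells. Of the 12 genes of the somatotroph list 7 were tested against lactotrophs, and Ghrhr, Pappa2, Rxrg and Foxo1 were the 4 called higher, with 0 lower and a median log2 ratio of 1.27. Foxo1 was at 149 CPM in somatotrophs and 153 CPM in Pomc cells, so it did not set somatotrophs apart from these. Neurod4, a bHLH transcription factor, was at 67.1 CPM against 41.2 CPM in lactotrophs, 1.63-fold more (1.09 to 2.51). Dlk1, a membrane protein of the Notch ligand family that somatotrophs are known for, was at 4571 CPM in somatotrophs, 3539 CPM in lactotrophs, 1058 CPM in Pomc cells and 72.1 CPM in non-endocrine cells, a graded and not a private pattern.

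Taken cell by cell, at least 2 of Pou1f1, Ghrhr, Neurod4, Pappa2 and Rxrg were found in 197 of 308 somatotrophs (64.0%, 58.3 to 69.3%), at least 3 in 152 and all 5 in 20. Of lactotrophs 26 of 190 (13.7%) had at least 2, of Pomc cells 0 of 328 and of T cells 4 of 3684 (0.109%). Gonadotropin cells (90 barcodes) had Lhb, Fshb, Tshb and Cga together at 1% of UMIs or more, the other hormones below their limits and no Ptprc UMI. Of these 6 (6.67%) had at least 2 and 65 had none. None of the 5 was found in 62 somatotrophs (20.1%). Cells without one were unevenly spread: 30 of the 56 members at 10 to 20% Gh had none, 4 of the 30 at 20 to 30% and 28 of the 222 at 30% or more, at median depths of 2572, 6014 and 11834.5 UMIs. At least 2 were found in 163 of the members at 30% Gh or more (73.4%, 67.1 to 79.1%) and in 17 of those at 10 to 20% (30.4%, 18.8 to 44.1%).

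**Figure D2:**
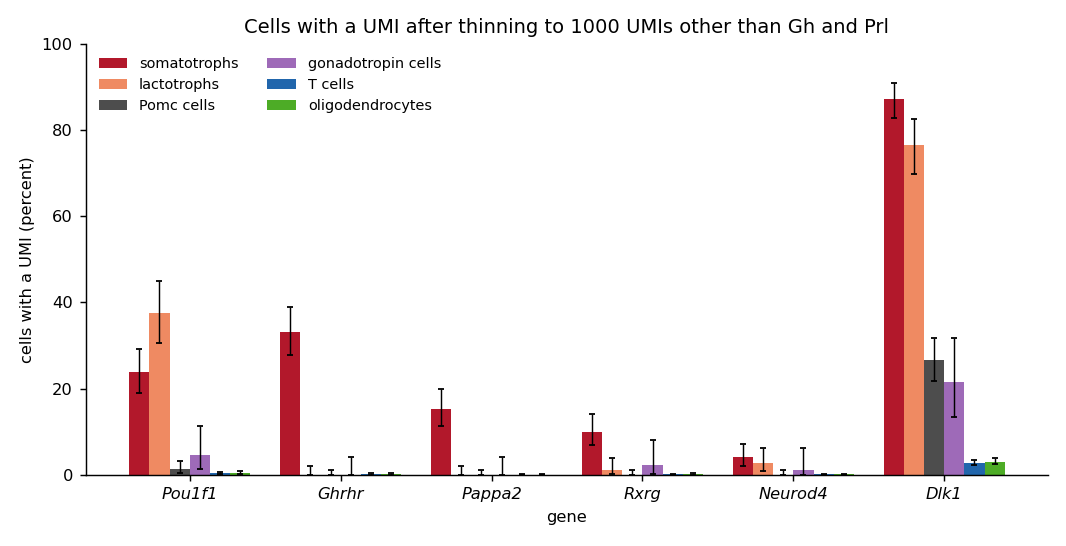
Cells with at least 1 UMI of 6 genes (percent) in 6 groups of FMC_new after thinning each cell to 1000 UMIs other than Gh and Prl, with exact 95% intervals as bars. Ghrhr and Pappa2 are found in somatotrophs at 33.1% and 15.2% and hardly elsewhere, Pou1f1 is higher in lactotrophs (37.5%) than in somatotrophs (23.8%), and Dlk1 is found in each pituitary group.

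Promoters are shown for Pou1f1 and Pappa2, which somatotrophs expressed, and for Prl, the hormone of the sister lineage, which was low in them. In GRCm38 the Pou1f1 gene spans chr16:65520511-65535005 (plus strand) and overlaps the counted gene Gm49631, which is read from the other strand. Pappa2 spans chr1:158711727-158980490 (minus strand), with the RefSeq start used here inside that span, and Prl spans chr13:27057570-27065205 (plus strand). Each sequence is the 250 bases before a RefSeq transcription start (GRCm38.p6), 5′ to 3′ on the gene's strand, with capitals for matches to ATGNATA, the core of a POU1F1 site, on either strand.
Pou1f1, chr16:65520262-65520511, plus strand: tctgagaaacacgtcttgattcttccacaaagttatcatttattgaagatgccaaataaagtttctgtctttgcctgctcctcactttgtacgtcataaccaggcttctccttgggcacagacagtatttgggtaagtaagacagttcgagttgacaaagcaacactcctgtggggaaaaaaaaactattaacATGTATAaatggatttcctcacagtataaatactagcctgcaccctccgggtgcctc
Pappa2, chr1:158958176-158958425, minus strand: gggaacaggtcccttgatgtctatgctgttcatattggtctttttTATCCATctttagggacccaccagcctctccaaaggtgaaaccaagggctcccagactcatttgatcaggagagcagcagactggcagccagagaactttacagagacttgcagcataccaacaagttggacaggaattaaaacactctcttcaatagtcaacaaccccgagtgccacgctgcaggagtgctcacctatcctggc
Prl, chr13:27057320-27057569, plus strand: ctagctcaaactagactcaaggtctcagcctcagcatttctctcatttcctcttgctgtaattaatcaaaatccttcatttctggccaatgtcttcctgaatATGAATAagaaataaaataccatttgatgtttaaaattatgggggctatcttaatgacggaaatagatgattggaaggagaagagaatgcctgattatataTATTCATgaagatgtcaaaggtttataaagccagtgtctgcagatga
The match begins 57 bases before the start in Pou1f1, 205 bases before it in Pappa2, and 148 and 47 bases before it in Prl. A second RefSeq start of Pou1f1 had no match in its 250 bases and is not shown. Of all 32851 such promoters 7.92% hold a match, which describes letters and is no evidence of binding.

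The other pituitary transcription factors were lower than or close to lactotrophs. Of the 17 transcription factors listed 6 could be tested. Of these 0 were called higher and 1 lower, against 11.0% and 4.86% of all genes, at a median log2 ratio of -0.44. Six6, a homeobox gene of the hypothalamus and pituitary, was the called one, at 32.9 CPM against 184 CPM, 5.59-fold lower (4.03 to 7.88). Lhx3, which acts early in pituitary development, was at 10.5 CPM against 45.0 CPM, under the limit of 50 CPM. Pitx1, found across pituitary lineages, was at 49.3 CPM against 72.0 CPM, and Insm1, a factor of endocrine cells in general, at 65.8 CPM against 73.3 CPM.

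Against Pomc cells, 1003 of 4662 genes (21.5%) were called higher in somatotrophs and 338 (7.25%) lower, with a median log2 ratio of 0.25. The higher genes included marker genes of other cells. Among them were 6 of 6 tested oligodendrocyte genes, 4 of 4 plasma cell genes and 3 of 4 macrophage genes. So were 4 of 4 red blood cell genes, and none of these lists had a lower gene. Why these genes were higher was not tested. Of 10 transcription factors tested 3 were higher and 5 lower. Pou1f1 was 91.9-fold higher (53.4 to 174) and Neurod4 97.2-fold higher (26.2 to 814, from 2 UMIs in Pomc cells). Tbx19, the T-box factor of the proopiomelanocortin lineages, Neurod1, Pitx1, Lhx3 and Six3 were the 5 lower ones, Pitx1 by 2.02-fold (1.56 to 2.64) and Lhx3 by 8.13-fold (4.91 to 14.4). Neurod1 had 1 UMI in somatotrophs and 68.3 CPM in Pomc cells.

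These splits depend on the total used. With Gh and Prl left in the total, the share of higher genes among the calls went from 69.4% to 52.1% against lactotrophs (213 higher, 196 lower) and from 74.8% to 10.7% against Pomc cells (202 higher, 1688 lower). The median log2 ratio then moved to -0.08 and -0.69. Against non-endocrine cells the main total gave 1407 of 5055 genes (27.8%) higher and 918 (18.2%) lower, with a median log2 ratio of 0.33, and the total of all UMIs gave 335 and 1796, with a median of -0.60.

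Among 25 genes of releasing hormone and cyclic AMP signalling, 18 were tested against lactotrophs, at a median log2 ratio of -0.19. Of the 18, 0 were lower and 4 were higher, against 4.86% and 11.0% of all genes. Besides Ghrhr the higher genes were an adenylyl cyclase, Adcy2, and the regulatory subunits of protein kinase A of type II. Adcy2 was at 205 CPM (182 to 229) against 21.9 CPM, 9.35-fold more (5.75 to 16.3). Prkar2b was at 113 CPM against 21.9 CPM, 5.17-fold more (3.14 to 9.09), and Prkar2a at 57.9 CPM against 21.9 CPM, 2.65-fold more (1.56 to 4.75). The stimulatory G protein subunit Gnas, through which Ghrhr acts, was the exception in size: 4244 CPM in somatotrophs, 5330.3 CPM in lactotrophs and 10456 CPM in Pomc cells. Pomc cells had Adcy2 at 232 CPM, close to somatotrophs, so Adcy2 set lactotrophs apart and not somatotrophs. Pde8b, a cyclic AMP phosphodiesterase, was at 42.8 CPM against 2 UMIs in lactotrophs, a ratio of 16.6 (4.42 to 140) below the limit on level.

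Receptors for somatostatin and ghrelin were scarcely seen. Over 308 somatotrophs Sstr2 and Sstr4 had 0 UMIs, Sstr1 had 2, Sstr3 had 4, and Sstr5 and Ghsr had 5 each. None of the 6 reached the limit of 50 CPM in any comparison, so their levels could not be told apart between the groups at this depth.

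Of 17 genes of growth hormone and IGF signalling 7 were tested against lactotrophs, with 3 higher, 0 lower and a median log2 ratio of 0.92. The shares over all genes were 11.0% higher and 4.86% lower. Cish, a STAT5-induced suppressor of cytokine signalling, was at 94.7 CPM (79.9 to 112) against 16.7 CPM, 5.66-fold more (3.21 to 10.9). T cells had Cish at a similar share of cells, 30.8% in both, so the gene was not particular to pituitary cells. The median depths behind these shares were 3618 UMIs in T cells and 9351 in somatotrophs. Pomc cells had Cish at 92.1 CPM, close to somatotrophs. After the mean of T cells was subtracted as free RNA, Cish was at 0 CPM in somatotrophs and lactotrophs and no longer called. That mean includes any Cish RNA of the T cells themselves, so the setting cannot tell free RNA from expression. The insulin receptor Insr was at 103 CPM against 34.7 CPM, 2.97-fold more (1.97 to 4.65), and its adaptor Irs2 at 207 CPM against 82.3 CPM, 2.51-fold more (1.91 to 3.34). The IGF receptor Igf1r reached 328 CPM, 1.54-fold above lactotrophs (1.29 to 1.85) and 5.05-fold above Pomc cells. Against Pomc cells 5 of 7 were higher and 0 lower, where 21.5% and 7.25% of all genes were. With all UMIs in the total, however, Insr and Irs2 no longer reached 2-fold.

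Nuclear hormone receptors went both ways: 3 of 7 tested were higher than in lactotrophs and 2 lower, at a median log2 ratio of 0.22. For all genes these shares were 11.0% and 4.86%. The receptors for corticosteroids were higher. Nr3c2, the mineralocorticoid receptor, was at 333 CPM (304 to 363) against 43.7 CPM, 7.61-fold more (5.37 to 11.1), and Nr3c1, the glucocorticoid receptor, at 245 CPM (221 to 272) against 47.6 CPM, 5.15-fold more (3.67 to 7.44). Nr3c1 was also found in 63.2% of T cells and in 51.0% of somatotrophs. After subtracting the mean of T cells as free RNA it was at 0 CPM in somatotrophs and lactotrophs and no longer called. That mean includes any Nr3c1 RNA of the T cells themselves, so the setting cannot tell free RNA from expression. Nr3c2 was found in 49.4% of somatotrophs and 4.83% of T cells. The third was Rxrg, given above. The thyroid hormone receptor Thrb was lower, at 74.3 CPM against 215 CPM, 2.89-fold (2.26 to 3.70). The estrogen receptor Esr1 had 246 CPM in somatotrophs and 211 CPM in lactotrophs, a ratio of 1.17 (0.968 to 1.41), while Pomc cells had 14.8 CPM.

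**Figure D3:**
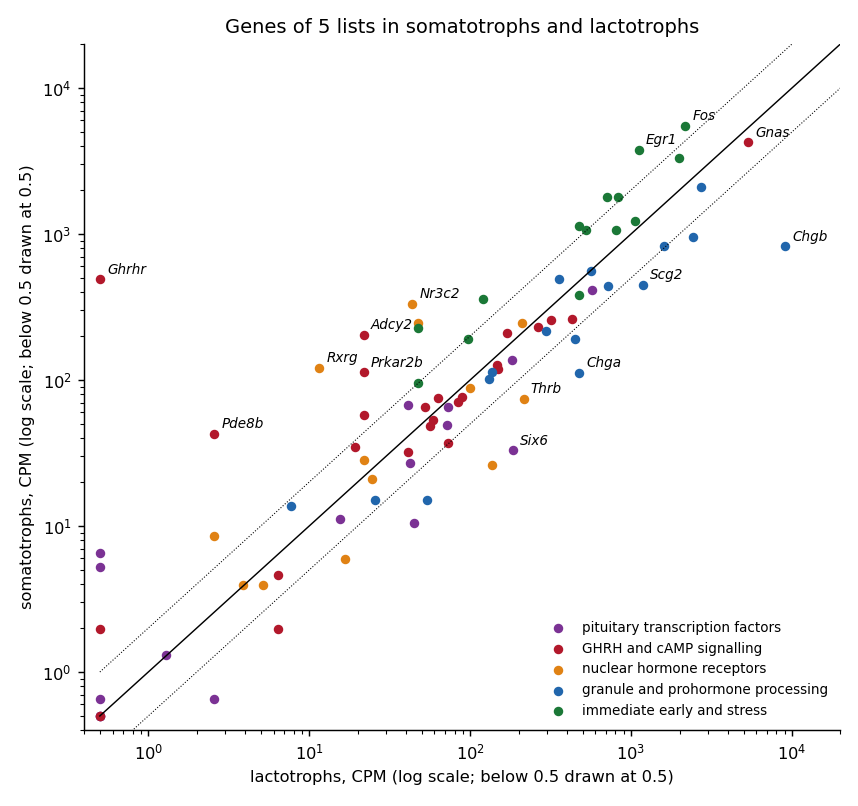
CPM in somatotrophs against CPM in lactotrophs (both log scales) for the genes of 5 lists, with equality as a solid line and 2-fold as dotted lines; points below 0.5 CPM are drawn at 0.5. Ghrhr stands at 489 CPM with 0 UMIs in lactotrophs, immediate early genes lie above the line apart from Nr4a1, and most granule genes lie below it, farthest for Chgb.

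Genes of the secretory granule were lower than in lactotrophs. Of 14 tested 0 were higher and 6 lower, at a median log2 ratio of -0.84 against 0.14 over all genes. Of all genes 11.0% were higher and 4.86% lower. Chgb, the granule protein chromogranin B, was at 822 CPM (777 to 869) against 9061 CPM (8851 to 9275), 11.0-fold lower (10.4 to 11.7). It had from 0 to 79 UMIs in a somatotroph with a median of 2. Chga, chromogranin A, was at 112 CPM against 476 CPM, 4.23-fold lower (3.52 to 5.10), but without the upper limits on genes and UMIs it was at 348 CPM against 465 CPM and no longer called. The secretogranins Scg2 (449.9 against 1185 CPM), Scg3 (190.1 against 448 CPM) and Scg5 (954 against 2435 CPM) were 2.63-fold, 2.36-fold and 2.55-fold lower. The sixth was Qpct, which makes pyroglutamate at peptide ends, at 15.1 against 54.0 CPM. Carboxypeptidase E, Cpe, which trims prohormones, did not follow them, at 562 CPM against 565 CPM.

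The 16 granule genes summed to 7443 CPM in somatotrophs, 20252 CPM in lactotrophs, 13647 CPM in Pomc cells and 549 CPM in T cells. Somatotrophs thus lay below lactotrophs and Pomc cells and above the background. Against Pomc cells 5 of 15 were lower, where 7.25% of all genes were. Among them were Pcsk2, the convertase that cuts proopiomelanocortin to its short peptides, by 30.2-fold (20.1 to 47.9), and Chga by 9.85-fold (8.44 to 11.6). Without the upper limits on genes and UMIs the log2 ratio of Chga went from -3.30 to -2.07. Secisbp2l, an RNA-binding protein, was the 1 higher gene, though it was called lower than in non-endocrine cells.

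The machinery of exocytosis was close to lactotrophs, with 1 of 13 tested higher, 0 lower and a median log2 ratio of 0.11. Over all genes 11.0% were higher, 4.86% were lower and the median was 0.14, so this list did not stand out. The called gene was Syt1, a calcium sensor of vesicle fusion, at 973 CPM (924 to 1024) against 479.9 CPM, 2.03-fold more (1.81 to 2.28). It fell under 2-fold with all UMIs in the total, at a log2 ratio of 0.81, and without the upper limits on genes and UMIs, at 0.82. Snap25, a SNARE protein of the cell membrane, was at 329.5 CPM against 374 CPM.

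Ion channel genes differed in both directions. Of 12 tested against lactotrophs 3 were higher and 3 lower, against 11.0% and 4.86% of all genes, at a median log2 ratio of 0.18. Kcnma1, the pore of the BK potassium channel, was at 425 CPM (393 to 459) against 125 CPM, 3.40-fold more (2.75 to 4.26), and its subunit Kcnmb4 at 147 CPM against 32.2 CPM, 4.58-fold more (3.02 to 7.23). Kcnmb2, another BK subunit and among the genes with the highest ratio to lactotrophs, was at 449.9 CPM in 57.5% of somatotrophs against 3 UMIs in lactotrophs, a ratio of 117 (39.7 to 567). Its log2 ratio of 6.87 became 6.02 without the upper limits and 9.78 after subtracting free RNA. Pomc cells had Kcnmb2 at 100.4 CPM and T cells had it in 0.841%, so these 3 BK genes were higher in somatotrophs than in either group, though Kcnmb4 no longer reached 2-fold against Pomc cells with all UMIs in the total. The calcium channel subunit Cacnb2 was 2.85-fold higher than in lactotrophs (2.29 to 3.59). The L-type pore gene Cacna1c went the other way, at 30.3 CPM against 246 CPM, 8.12-fold lower (5.86 to 11.5), while Scn3a, a sodium channel, was 4.10-fold lower (2.39 to 7.26) and Cacna2d1 was 2.03-fold lower (1.72 to 2.40).

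**Figure D4:**
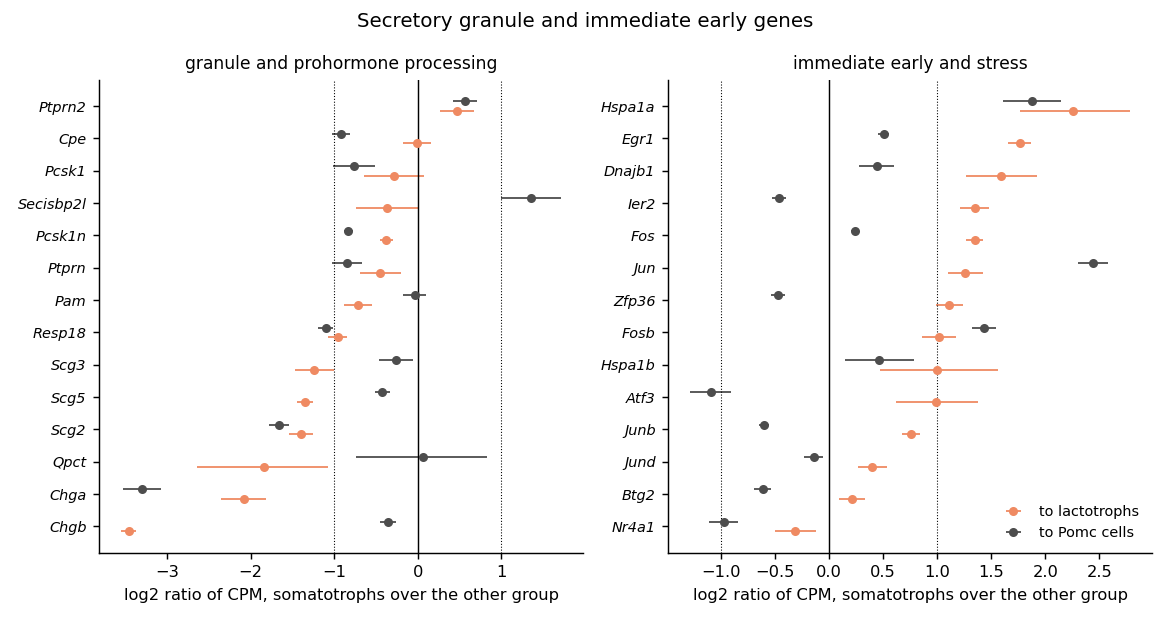
log2 ratio of CPM in somatotrophs to lactotrophs and to Pomc cells for genes of the granule list (left) and of the immediate early list (right), with exact 95% intervals from counts as bars and dotted lines at 2-fold. Granule genes lie at or left of 0 against lactotrophs apart from Ptprn2, down to Chgb at 11.0-fold lower, and immediate early genes lie right of 0 apart from Nr4a1, while against Pomc cells both signs occur.

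Genes of protein entry and folding in the endoplasmic reticulum were nearly level with lactotrophs. All 27 listed were tested, 1 was higher and 1 lower, against 11.0% and 4.86% of all genes, and the median log2 ratio was -0.24. Atf4, a transcription factor of the stress response, was at 278 CPM against 99.1 CPM, 2.80-fold more (2.19 to 3.62), and the translocon-associated subunit Ssr4 at 541 CPM against 1109 CPM, 2.05-fold lower (1.86 to 2.26). The chaperone Hspa5 (BiP) was at 1188 CPM against 1015 CPM. Pomc cells had Atf4 at 251 CPM, close to the 278 CPM of somatotrophs. Against Pomc cells 5 of 27 were higher, where 21.5% of all genes were, among them the channel subunit Sec61a1 at 2.19-fold (1.81 to 2.66) and Ssr3 at 2.12-fold (1.83 to 2.45), and Creb3l2 was lower by 2.08-fold (1.83 to 2.36). With all UMIs in the total neither Sec61a1 nor Ssr3 reached 2-fold.

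The imprinted locus that holds Dlk1 was on in both prolactin and growth hormone cells. Meg3, its long noncoding RNA, was at 3255 CPM (3165 to 3347) in somatotrophs, 3388 CPM in lactotrophs, 2409 CPM in Pomc cells and 196 CPM in non-endocrine cells. Rian, another RNA of the locus, was at 486 CPM and 556 CPM in somatotrophs and lactotrophs. Of the 3 genes tested 0 were called against lactotrophs, Dlk1 was called higher against Pomc cells, and all 3 were called higher against non-endocrine cells.

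Immediate early and heat shock genes were higher than in lactotrophs. All 14 were tested, 9 were called higher and 0 lower, against 11.0% and 4.86% of all genes, and the median log2 ratio was 1.07. Fos was at 5499.7 CPM (5382 to 5619) against 2163 CPM (2061 to 2269), 2.54-fold more (2.41 to 2.68), with 0 to 128 UMIs in a somatotroph and a median of 17. Egr1 was at 3778 CPM against 1113 CPM, 3.40-fold more (3.16 to 3.65), and Ier2 at 1801 CPM against 708 CPM, 2.55-fold more (2.32 to 2.79). Jun, at 1141 CPM against 476 CPM, and the heat shock gene Hspa1a, at 228 CPM against 47.6 CPM, were called as well, but not without the upper limits on genes and UMIs, where their log2 ratios were 0.56 and 0.82. Fosb, Zfp36 and Hspa1b, at log2 ratios of 1.02, 1.11 and 1.00, were under 2-fold with all UMIs in the total. Hspa1a was uneven, with 88.4% of its UMIs in the 31 members that held most. Nr4a1, a nuclear receptor that calcium and cyclic AMP induce, was not higher, at 384 CPM against 476 CPM.

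Pomc cells resembled somatotrophs in the sum of the list, at 22554 CPM against 21973 CPM, whereas lactotrophs had 10452 CPM and T cells 7167 CPM. Against Pomc cells 3 of 14 were higher (Fosb, Jun and Hspa1a) and Atf3 was lower, at a median log2 ratio of 0.05. These counts were close to the shares over all genes, 21.5% higher and 7.25% lower. Fos and Egr1 were 1.18-fold and 1.42-fold higher than in Pomc cells, and both were lower with all UMIs in the total. Fosb and Hspa1a then no longer reached 2-fold.

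Of 16 cell cycle genes Ccnb1, Birc5 and Rrm2 had 0 UMIs and Mki67 had 2 UMIs in 308 somatotrophs. Pcna, which dividing and repairing cells use, was at 51.3 CPM against 42.5 CPM in lactotrophs. The list summed to 86.8 CPM in somatotrophs and 655 CPM in T cells.

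Most markers of other hormone cells were low. Of the 4 genes of the lactotroph list tested, Edil3, Angpt1 and Akr1c14 were 6.18-fold (4.99 to 7.69), 30.6-fold (15.7 to 68.4) and 10.8-fold (5.01 to 26.5) lower than in lactotrophs. The other, Esr1, was not called, as given above, and against Pomc cells Esr1 and Edil3 were called higher. The dopamine receptor Drd2, through which prolactin release is held down, had 7 UMIs, 9.78-fold lower than in lactotrophs (4.28 to 26.1). Tshb, the thyrotropin subunit, was at 16.4 CPM against 398 CPM in lactotrophs. Cga, the shared glycoprotein subunit, was at 77.6 CPM, of which 83.1% came from 1 cell. Pomc was found in 55.2% of somatotrophs and 44.6% of T cells, at 889 CPM against 526 CPM in T cells and 107090.0 CPM in Pomc cells. Of its 1351 UMIs 727 came from the 56 members at 10 to 20% Gh.

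Markers of optic nerve and blood cells were set beside the same lists in T cells. The 95th percentile of the T cells' share of UMIs was exceeded by the plasma cell list in 25 of the 56 members at 10 to 20% Gh, 0 of the 30 at 20 to 30% and 1 of the 222 at 30% or more. For the oligodendrocyte list these were 10, 8 and 8 members, for the astrocyte list 17, 0 and 2, for the macrophage list 2, 2 and 1, and for the red blood cell list 3, 1 and 4. For the oligodendrocyte precursor list they were 10, 3 and 16. As shares, the plasma cell list was highest in the lowest range (44.6%), as was the astrocyte list (30.4%), while the oligodendrocyte list was highest at 20 to 30% Gh (26.7%, against 17.9% and 3.60%). The defining endothelial genes Cldn5 and Cdh5, Aqp4 of astrocytes and Col3a1 and Lum of fibroblasts had 0 UMIs. Red blood cell genes reached 31.4% of the UMIs of 1 somatotroph, which alone held 60.5% of the Hbb-bs UMIs, so the Hbb-bs level of 4848 CPM does not describe the group. Their part in the other results was not tested.

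Col1a2, a chain of type I collagen, did not follow its list. It had 142 UMIs in somatotrophs at 93.4 CPM (78.7 to 110.1), in 33.4% of cells against 0.896% of T cells, with at most 6 UMIs in a cell. Lactotrophs had 326 CPM, 3.48-fold more (2.83 to 4.31), and Pomc cells 1.04 CPM, while Col1a1, the partner chain in fibroblasts, had 2 UMIs in somatotrophs. Col1a2 was thus shared between somatotrophs and lactotrophs without the other fibroblast genes.

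The genes with the highest ratio to lactotrophs, by a fixed rule, included some of the identity genes above and several others. Ccn1, a matrix-associated signalling protein, was at 506 CPM (471 to 544) in 43.8% of somatotrophs against 1 UMI in lactotrophs, a ratio of 394 (70.4 to 15569), and the log2 ratio of 8.62 became 6.93 without the upper limits. It had 0 to 35 UMIs in a cell, and 1.44% of T cells had one. Dnah9, an axonemal dynein, was at 211 CPM in 35.7% of cells against 1 UMI, a ratio of 164 (29.2 to 6502). Grb10, an imprinted adaptor that restrains insulin and IGF receptors, was at 103 CPM against 2 UMIs in lactotrophs, a ratio of 39.9 (10.9 to 332), and 1 UMI in Pomc cells. Il1r1, the interleukin 1 receptor, was at 272 CPM (246 to 299) in 44.5% of cells against 7.72 CPM, 35.2-fold more (16.0 to 96.5), and 2.76 CPM in Pomc cells. Its log2 ratio to lactotrophs, 5.14, was 4.50 without the upper limits and 7.06 after subtracting free RNA. Crispld2, Dapl1, Me3, Ddit4l and Egfem1 followed with 1 to 3 UMIs each in lactotrophs. Ighv1-67 and Ighv3-6 stood in this list too, the first from the 22 barcodes described above and the second with 96.5% of its UMIs from 1 cell.

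Several other ratios to lactotrophs moved by more than 1.5 times and kept their sign. Without the upper limits the log2 ratio of Adcy2 went from 3.23 to 3.96, of Nr3c1 from 2.37 to 3.10, of Drd2 from -3.29 to -4.17 and of Col1a2 from -1.80 to -2.60. After subtracting free RNA that of Insr went from 1.57 to 2.79, of Jun from 1.26 to 2.41, of Edil3 from -2.63 to -5.04 and of Angpt1 from -4.94 to -5.96, while Foxo1 and Atf4 were at 0 CPM in lactotrophs. At a Gh limit of 30% Hspa1a went from 2.26 to 1.51.

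At the other end, Crhbp, which binds corticotropin-releasing hormone, had 0 UMIs in somatotrophs and 106 in lactotrophs, at least 69.1-fold lower. The ephrin receptor Epha6 had 1 UMI, 139-fold lower (24.1 to 5561), the guanylyl cyclase Gucy2f 2 UMIs, 124-fold lower (33.7 to 1037), and the nicotinic receptor subunit Chrna6 1 UMI, 76.3-fold lower (12.9 to 3089). The GABA receptor subunit Gabra2, the relaxin receptor Rxfp1, the matrix protein Reln and the activin-type receptor Acvr1c were 75.3-fold, 46.9-fold, 33.6-fold and 27.9-fold lower. Among the 15 were 4 immunoglobulin genes, of which Ighv8-12 had 4862 UMIs in lactotrophs, 10 or more of them in each of 12 cells.

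Against Pomc cells the highest ratios after Ighv1-67 and Pappa2 were those of the noncoding gene 5330429C05Rik (684, 122 to 27104, from 1 UMI), Ghrhr and Grb10. Cyp27a1, a sterol hydroxylase, was at 66.4 CPM against 1 UMI. Pcsk6, a proprotein convertase, was at 228 CPM against 2.07 CPM, 110.2-fold more (50.1 to 302), and Car10, a carbonic anhydrase-related protein, at 335 CPM against 3.11 CPM, 108-fold more (56.3 to 237). The genes with the lowest ratios, besides Pomc itself, were led by the acetylcholine receptor subunit Chrne, with 1 UMI against 147 CPM, and held the receptors of the corticotroph, Avpr1b and Crhr1, 69.0-fold (18.9 to 573) and 59.8-fold (16.4 to 497) lower.

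Against non-endocrine cells the highest ratios were those of Pappa2 at 634 (445 to 929.5) and Ghrhr at 412 (336 to 509). Neurod4 at 129, Pou1f1 at 98.7, Rxrg at 68.5 and Dlk1 at 63.4 were in the same list of 25. Kl, which encodes Klotho, was 123-fold higher (88.0 to 173) and Mrap2, an accessory protein of melanocortin and ghrelin receptors, 75.8-fold higher (61.6 to 93.3). Gnmt, a glycine methyltransferase, was 87.4-fold higher (69.3 to 110.5), Greb1, an estrogen-regulated gene, 82.5-fold higher (62.3 to 109.6) and the Wnt receptor Ror2 69.7-fold higher (51.6 to 94.1). Nrg1, the ErbB ligand neuregulin 1, was at 3961 CPM (3861 to 4062) in 74.7% of somatotrophs against 3.47% of T cells, 57.0-fold above non-endocrine cells (55.0 to 59.1) and 2.19-fold above lactotrophs (2.07 to 2.32). With all UMIs in the total its log2 ratio to lactotrophs was 0.92, and without the upper limits on genes and UMIs 0.99, both under 2-fold.

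Somatotrophs of different Gh share differed from each other. Of 4815 genes, 774 (16.1%) were called higher in the 222 members at 30% or more than in the 56 at 10 to 20%, and 383 (7.95%) lower. Without the 22 barcodes with Ighv1-67 the counts were 680 (14.1%) and 385 (7.98%) of 4826. The Gh share chose the ranges, and depth moved with them, as given above.

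Ghrhr went up with the Gh share, from 172 CPM (122 to 235) at 10 to 20% over 249.8 CPM at 20 to 30% to 593 CPM (548 to 639.6) at 30% or more, 3.44-fold (2.49 to 4.88). Over the 8 ranges of 10 points it was 172, 249.8, 383, 598, 638, 678, 901 and 325 CPM, the last from 4 cells. Pappa2 was at 102, 155 and 281 CPM in the 3 ranges, 2.77-fold (1.81 to 4.43), and Foxo1, a transcription factor under insulin control, at 79.5, 133 and 165 CPM, 2.08-fold (1.28 to 3.59). Nr3c2 and Syt1 were higher at 30% or more as well, 2.77-fold (1.91 to 4.15) and 2.15-fold (1.76 to 2.63). Pou1f1 did not vary in this way, at 437, 433 and 404 CPM, nor did Dlk1, at 4557, 3842 and 4692 CPM, or Neurod4, at 61.8, 77.7 and 66.4 CPM. Within the range of 30% or more Dlk1 did vary, from 3252 CPM at 30 to 40% to 8775 CPM at 70 to 80%, while Pappa2 was at 29.1 CPM (3.52 to 105) at 70 to 80%. There Pou1f1 was at 218 CPM (122 to 359). The share of cells with a UMI of Pou1f1 still went from 35.7% to 68.5%, with the deeper cells at the higher Gh share.

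The gene with the highest ratio between the ranges was Lpl, lipoprotein lipase, at 97.0 CPM in 31.5% of members at 30% or more against 1 UMI at 10 to 20%, a ratio of 22.0 (3.86 to 875). The other 9 genes of that end, Gli2, Nampt and Slc7a8 among them, also had 1 UMI at 10 to 20%. Several of the 10 genes at the lower end are genes of other cells. Igkv6-17 was at 31623 CPM at 10 to 20% and 459.7 CPM at 30% or more, the matrix protein Mgp at 402 and 4.49 CPM, and the neuropeptide galanin, Gal, at 887 and 26.04 CPM. Pomc was at 3209.95 and 485 CPM. Part of this came from the 22 barcodes with Ighv1-67. They held 90 of the 91 Mgp UMIs at 10 to 20%, and the other 34 members had 1 UMI (5.39 CPM). Each of the 22 held 127 to 528 Igkv6-17 UMIs. Pomc was at 8820 CPM in the 22 and 1972 CPM in the other 34. Chgb was higher at 10 to 20%, at 1572 CPM against 661 CPM, 2.38-fold (2.09 to 2.70).

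Over the ranges of 10 points Chgb was at 1572 CPM in the lowest, at 471 CPM at 50 to 60% and at 1191 CPM at 70 to 80%. Jchain was at 3806 CPM in the lowest range, between 638 and 858 CPM in the next 4, at 1250.4 and 1395 CPM in the 2 after these and at 3409 CPM (2110.3 to 5211) in the 4 cells at 80 to 90%. In the lowest range 691 of its 862 UMIs came from the 22 barcodes with Ighv1-67, and the other 34 cells were at 922 CPM. Across the 308 members Spearman's rho of the Gh share was 0.345 with total UMIs, -0.122 with UMIs other than Gh and Prl, and -0.505 with the mitochondrial share, all from the same library with shared denominators, so they describe these cells and no more. Within the 222 members at 30% or more they were 0.0126, -0.378 and -0.503.

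**Figure D5:**
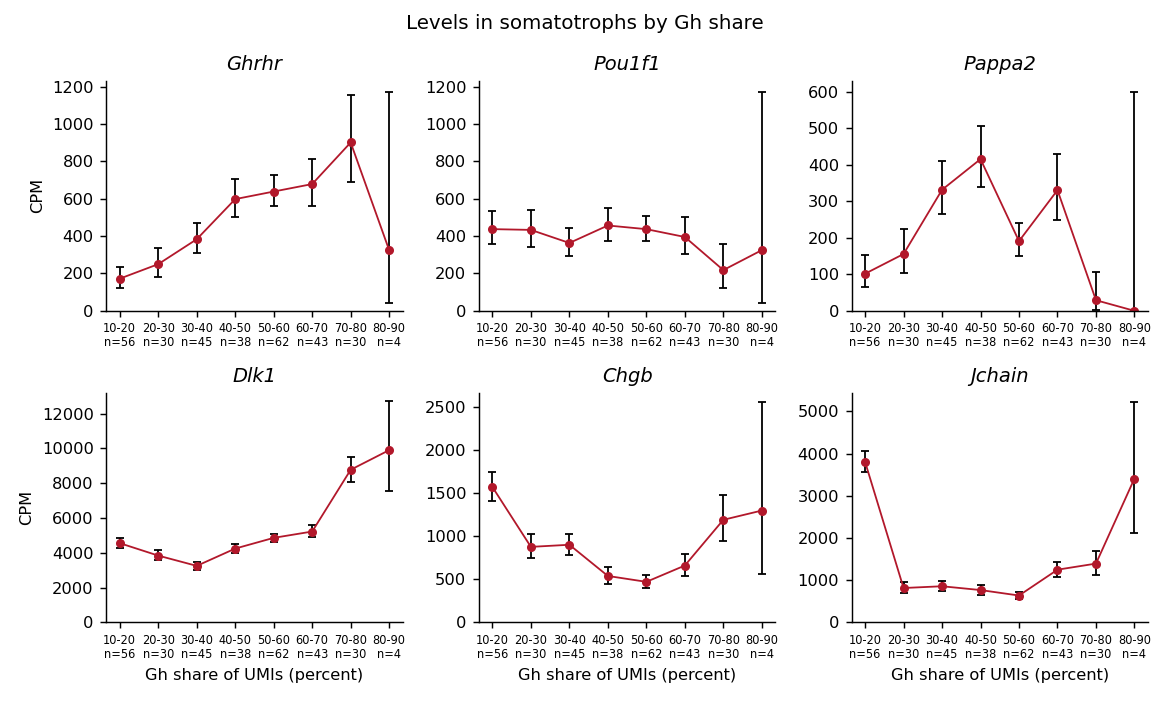
CPM of 6 genes (vertical axes) in somatotrophs by Gh share of UMIs (percent, 8 ranges with their number of cells), with exact Poisson 95% intervals as bars. Ghrhr climbs from 172 to 901 CPM over 7 ranges, Pou1f1 stays between 218 and 457 CPM, and Chgb and Jchain are high at 10 to 20%, Jchain mainly from 22 of those 56 cells; the last point rests on 4 cells.

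Nf1, the gene deleted in the glia of these mice, spans chr11:79339693-79581612 (plus strand, GRCm38), with Omg, Evi2, Evi2a and Evi2b among the genes on the other strand inside its span. It was at 94.1 CPM (79.3 to 111) in somatotrophs, 63.0 CPM in lactotrophs, 72.1 CPM in Pomc cells and 54.8 CPM in non-endocrine cells. A Nf1 UMI was found in 29.2% of somatotrophs and 14.0% of T cells at their different depths. The ratio to lactotrophs was 1.49 (1.07 to 2.11), under the limit for a call. With all UMIs in the total the log2 ratio turned from 0.38 to -0.56 against Pomc cells and to -0.16 against non-endocrine cells. The counts do not distinguish the floxed, the recombined and the mutant allele.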

How the data were processed

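Single-cell RNA was measured in 2 libraries of pooled optic nerves. The authors made the deposited counts, whole-number UMIs per gene and barcode, with Cell Ranger 7.2.0 per the file headers (the study's methods name another version) on the mm10 build, and filtered cells with the limits used here. Reads were not remapped. Members, gene lists and groups were chosen with earlier results of these data known. UMIs were summed per group and scaled to 1000000 UMIs other than Gh and Prl, with exact Poisson, Clopper-Pearson and conditional 95% intervals (scipy 1.17.1, numpy 2.4.6, pandas 2.3.3, Python 3.11.15). A group at 0 was set to 3 UMIs for a ratio. Named genes were those of the lists and, per comparison, the 15 with the highest and the lowest ratio (25 against non-endocrine cells, 10 between Gh ranges). No barcode was removed as a doublet: Scrublet (scanpy 1.11.5) called 0 of 16818, so it had not worked. Scripts were tested on simulated data. Coordinates are from GENCODE (GRCm38), matched by ID for 32235 of 32285 genes. Total depth was 129113325 UMIs in FMC_new and 85101211 in C-ON. Alternatives covered the Gh, size, mitochondrial and Prl limits, doublets, marker lists, thinning, the total, free RNA and the limits for a call. Levels were not compared between genes. Some listed genes are not reported here.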

Additional observations from a re-analysis of the deposited data

Results flagged for a closer look

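A pair of barcode sets of FMC_new lay outside the somatotrophs described above and still carried the signal, while C-ON had 0 of 10845 barcodes with Gh at 10% or more. Over the upper limits on genes or UMIs, but otherwise meeting the rule, were 69 barcodes with a median of 24550.0 UMIs and 57.2% Gh. Ghrhr was found in 100% of them, Pou1f1 in 88.4% and Pappa2 in 79.7%, against 66.2%, 61.0% and 39.9% of somatotrophs at a median of 9351 UMIs. With a Ptprc UMI, but otherwise meeting the rule, were 74 barcodes with a median of 4298.5 UMIs and 24.95% Gh. Ghrhr was found in 43.2% of these (31.8 to 55.3%), Pou1f1 in 36.5% and Pappa2 in 28.4%.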

How the results depend on the processing

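Of 97 values under alternatives 60 stayed within their counting interval or 1.5 times the count and 37 moved. The 308 somatotrophs became 362 at a Gh limit of 5%, 252 at 20%, 222 at 30% and 377 without upper limits on genes and UMIs. Leaving out members with 2 or more UMIs of any other-cell list left 0, so the other results have no value there. The median Gh share of 46.7% became 39.4%, 51.5% and 53.6% at limits of 5%, 20% and 30%. The share with a Pou1f1 UMI, 23.8%, became 31.6% and 29.4% at limits of 20% and 30%, 30.3% without the highest 10% of Scrublet scores, 14.6% at 500 UMIs and 61.0% without thinning. Each thinned setting drew its UMIs anew, so the thinned shares also carry the spread of the draw, which the counting interval does not cover. Called genes are given in the order higher and lower than lactotrophs, higher and lower than Pomc cells, and higher than non-endocrine cells. From 508, 224, 1003, 338 and 1407 they became 231, 134, 482, 178 and 789 at 3-fold, 1055, 481, 1900, 624 and 2517 at 20 CPM, 2314, 1541, 4422, 1594 and 10397 without a minimum, and 1628, 690, 2051, 1179 and 2796 after subtracting free RNA. With all UMIs in the total they were 213, 196, 202, 1688 and 335, since Gh then counts in the denominator, and the balance turned: lower genes outnumbered higher ones against Pomc cells and, with 1796 lower, against non-endocrine cells, where the median log2 ratios went from 0.25 to -0.69 and from 0.33 to -0.60. Apart from the changed limits themselves, the cause was not tested. The limit of 30%, the Scrublet scores, the Ighv1-67 barcodes and a minimum share of cells were chosen after seeing the data. The planned removal of called doublets changed nothing, since 0 were called. No paired analysis was possible because the members come from 1 library, which also cannot be left out. Depth limits genes of a few UMIs, such as Sstr5.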
